A study of Mus musculus with 6 samples.

Results

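The genes described here encode the receptors for interleukins and for colony-stimulating factors (CSFs). They were taken by name: a gene was included when its platform symbol began with Il, a number and r, or with Csf, a number and r, and when the probe set named no other gene. This gave 41 of 18193 genes, covered by 76 probe sets. Each gene was represented by the probe set with the highest mean over all 6 arrays, and 23 of the 41 genes had more than 1 probe set to choose from. The rule also takes in genes that carry such a name without being signalling receptors, such as Il1rn, a secreted antagonist of interleukin-1, and Il22ra2, a secreted binding protein for interleukin-22.

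Expression was measured on 6 arrays of haematopoietic stem cells (HSCs) from mouse bone marrow, 3 of label-retaining cells (LRC, GFP+) and 3 of non-LRC (GFP-). All samples came from the SCL-tTA H2B-GFP line, in which a transactivator placed in the endogenous Scl locus drives a histone H2B fused to green fluorescent protein in HSCs and progenitors. All were taken after 170 days of doxycycline, which switches the fusion off, and all passed the same gate: Sca1, c-Kit and CD150 present, with CD34, CD48 and lineage markers absent. GFP- cells that lost the label through divisions cannot be told apart from cells that were never labelled. The labels call the 3 samples of a group independent replicates; strain background, age and any pooling of animals are not stated in them.

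Most cytokine receptors are assembled from chains. A chain that binds 1 cytokine pairs with a shared chain that signals through JAK kinases and STAT factors: the common beta chain for interleukin-3 (IL-3), IL-5 and GM-CSF, the common gamma chain for IL-2, IL-4, IL-7, IL-15 and IL-21, and gp130 for IL-6 and IL-27. Receptors of the IL-1 and IL-18 family signal through MyD88 and IRAK kinases instead, and those for IL-17 through the adaptor encoded by Traf3ip2. In bone marrow these cytokines drive the growth and survival of progenitors and mature blood cells, and several also act on HSCs during infection. A cell that lacks a chain generally cannot respond on its own.

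Values are on the log2 scale of RMA, and the 3 values of a group are listed in the order of replicates 1, 2 and 3. The values hold no detection call, so each array's median over all probe sets (4.33 to 4.39) served as 1 reference. A stricter one was the 90th percentile, on each array, of 43 measured genes that belong to other tissues such as liver, muscle and brain (4.99 to 5.92, called the other-tissue level). Of those 43 genes 11 also lay above the array median on all 6 arrays, so a place above the median alone does not show expression. Probe sets differ in brightness for the same amount of RNA, so levels of different genes were not ranked. In bulk samples, fewer expressing cells and less RNA per cell cannot be told apart.

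Few of the receptor genes stood clear of both references in these HSCs. Of the 41 genes, 15 (36.6%) lay above the array median on all 6 arrays, where 49.1% of all genes did. A further 11 did so on some arrays and 15 on none. Above the other-tissue level on all 6 arrays were 4 genes (9.76%), against 31.5% of all genes: Il17ra, Il15ra, Il21r and Il6ra. That level was 5.92 on non-LRC replicate 1 and 4.99 to 5.38 on the other arrays. Il21r (5.94) and Il6ra (5.98) were close to it on non-LRC replicate 1. Il4ra, Il17rc, Il27ra and Il12rb2 exceeded it on 5 arrays and missed it on non-LRC replicate 1 alone. Membership of this list thus rests partly on the level of 1 array. Above the 75th percentile on all 6 arrays were 2 (4.88%, against 22.6% of all genes), Il17ra and Il15ra. Of 10 measured HSC marker genes 9 lay above the array median on all 6 arrays, the exception being Tek on LRC replicate 1. Above the other-tissue level on all 6 arrays were 8 of the 10. Hoxb5 missed it on LRC replicate 1 (5.04), and Tek exceeded it on 3 arrays.

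**Figure D1:**
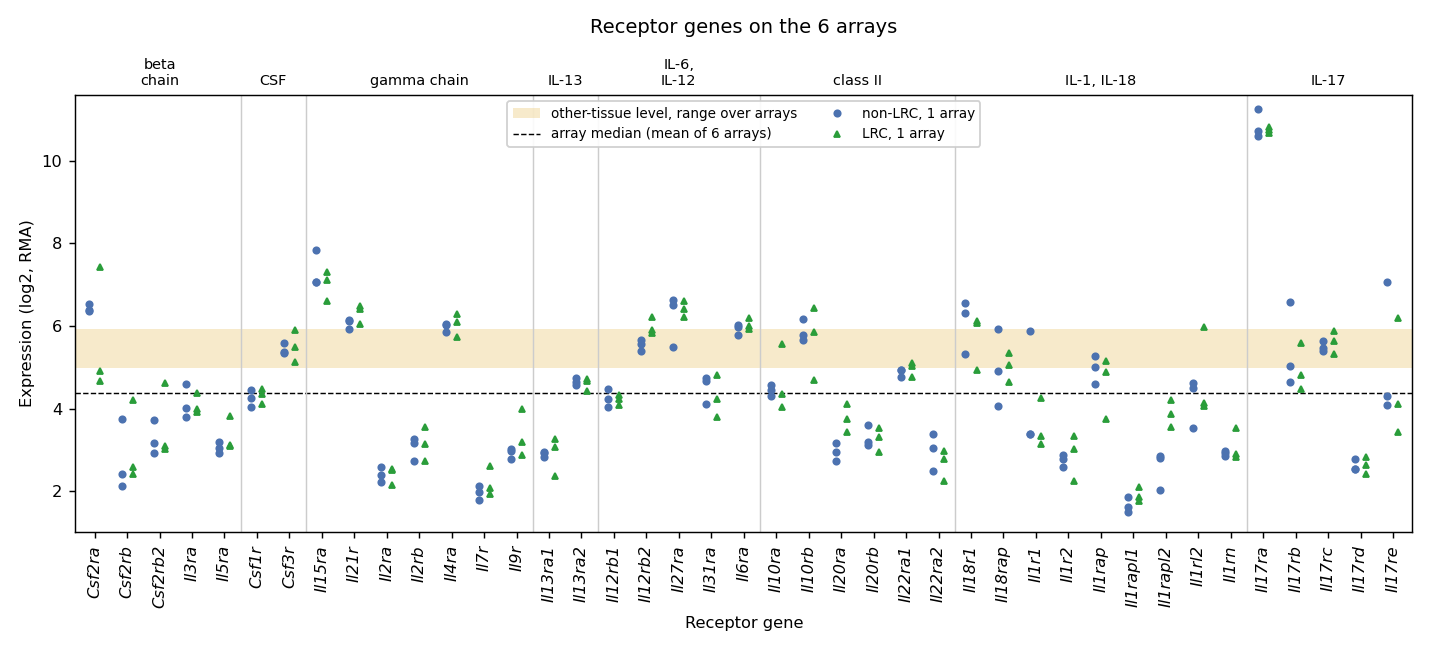
Expression (log2, RMA) of the 41 receptor genes by family, with 1 circle for each non-LRC array and 1 triangle for each LRC array (n = 3 each). The dashed line is the mean of the 6 array medians and the band is the other-tissue level from 4.99 to 5.92; Il17ra is the gene farthest above both, and 15 genes stay below the dashed line on every array.

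The IL-17 receptors had 3 of 5 genes above the median on all 6 arrays. Il17ra, the shared signalling chain of this family, was at 10.71, 11.25 and 10.59 on the non-LRC arrays and 10.74, 10.67 and 10.81 on the LRC arrays. Its other probe set was also far above both references, at 8.30 to 9.43. The groups overlapped, and the mean of 10.85 ± 0.35 in non-LRC and 10.74 ± 0.07 in LRC (SD, n = 3 each) differed by -0.11 (SE 0.23). Il17rc, its partner for IL-17A, was at 5.63, 5.39 and 5.46 on the non-LRC arrays and 5.64, 5.32 and 5.88 on the LRC arrays. It lay above the other-tissue level on 5 of 6 arrays, although its other probe set was at 2.62 to 3.16. Il17rb, the partner for IL-25, was spread over the replicates, at 4.64, 5.03 and 6.59 on the non-LRC arrays and 5.59, 4.48 and 4.80 on the LRC arrays. Non-LRC replicate 3 was the high array, and only 2 arrays exceeded the other-tissue level. Il17re, the partner for IL-17C, exceeded the median on non-LRC replicate 1 (7.06) and LRC replicate 3 (6.20) alone, and Il17rd stayed at 2.40 to 2.83.

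Among receptors that use the common gamma chain, 3 of 7 genes lay above the array median on all 6 arrays and 4 on none. Il15ra, which binds IL-15 and can present it to neighbouring cells, was at 7.06, 7.07 and 7.84 on the non-LRC arrays and 6.59, 7.31 and 7.12 on the LRC arrays. Its other probe set, at 5.93 to 7.44, also exceeded the other-tissue level on every array. Il15, the ligand, was above that level on all 6 arrays too, at 5.59 to 7.53. By contrast Il2rb, the chain that passes on the IL-15 signal, was at 2.73 to 3.56. Il21r, the receptor chain for IL-21, was at 5.94, 6.12 and 6.13 on the non-LRC arrays and 6.04, 6.41 and 6.48 on the LRC arrays, where 2 LRC arrays exceeded every non-LRC array. Il4ra, the chain for IL-4 and IL-13, was at 5.84, 6.01 and 6.05 on the non-LRC arrays and 5.73, 6.29 and 6.09 on the LRC arrays, and 1 of its 2 other probe sets was above the other-tissue level on all 6 arrays. Il13ra1, its partner for IL-13, stayed below the median with all 5 of its probe sets, at 2.38 to 3.26 for the brightest. The common gamma chain gene Il2rg is not analysed here.

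Il7r, Il2ra and Il9r stayed below the array median on every array. Il7r, which marks lymphoid progenitors and T cells, was at 2.13, 1.80 and 1.97 on the non-LRC arrays and 2.62, 1.92 and 2.08 on the LRC arrays, and its other probe set was at 1.92 to 2.17. Il2ra, the inducible IL-2 receptor chain of T cells, was at 2.16 to 2.58. Il9r was at 2.98, 3.03 and 2.78 on the non-LRC arrays and 3.99, 3.18 and 2.88 on the LRC arrays, with LRC replicate 1 the highest. None of the 7 measured T cell marker genes, and none of the 4 for natural killer and innate lymphoid cells, exceeded the other-tissue level on any array. Of the latter, Klrk1 was at 5.14 on LRC replicate 1, where that level was 5.38, and at 1.86 to 2.28 on the other arrays. Ncr1, Klrd1 and Eomes lay below the median on all 6 arrays. Of 6 measured B cell markers, 4 also stayed below the other-tissue level throughout. Cd79b exceeded it on all 6 arrays (5.52 to 7.17) and Vpreb1 on 4, with 9.58 on LRC replicate 1. The part of such cells in the receptor values was not tested.

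Of the receptors for the myeloid growth factors, only 2 of 7 genes lay above the median on all 6 arrays. Csf3r, the receptor for G-CSF, was at 5.34, 5.58 and 5.38 on the non-LRC arrays and 5.12, 5.49 and 5.89 on the LRC arrays, and exceeded the other-tissue level on 4 arrays. Neutrophils depend on G-CSF, and of 7 measured neutrophil markers 2 lay above the median on all 6 arrays. The log2 values of all 7, added up, came to 34.8 to 43.5 in non-LRC and 32.8 to 36.6 in LRC. Mpo was at 4.03 on LRC replicate 1 and 7.57 to 9.20 on the other arrays, and S100a8 ran from 4.27 to 8.27. Ltf and Ngp lay below the median on all 6 arrays. The part of neutrophils in the Csf3r signal was not tested. Csf2ra, the GM-CSF binding chain, was tight in non-LRC at 6.54, 6.35 and 6.38 but ran from 7.43 on LRC replicate 1 to 4.90 and 4.68 on the others. Csf2rb, the shared beta chain that Csf2ra needs for signalling, lay below the median on all 6 arrays by its probe set of highest mean. It was at 2.42, 3.75 and 2.12 on the non-LRC arrays and 2.58, 4.20 and 2.41 on the LRC arrays. Csf2rb2, the mouse-specific beta chain for IL-3, was at 3.16, 3.71 and 2.91 on the non-LRC arrays and 3.08, 3.02 and 4.63 on the LRC arrays. The neighbouring Csf2rb and Csf2rb2 genes are near copies, and 1 probe set outside the rule names both; it was at 4.51 to 4.95, above the median and below the other-tissue level on all 6 arrays. Il3ra, the IL-3 binding chain, was at 3.80, 4.59 and 4.01 on the non-LRC arrays and 3.91, 3.99 and 4.38 on the LRC arrays, above the median on 2 arrays. Il5ra, the chain of eosinophils and their precursors, stayed at 2.92 to 3.83, and none of 4 eosinophil or 5 mast cell and basophil markers lay above the median on all 6 arrays. The eosinophil genes Prg2 and Epx were nevertheless highest on LRC replicate 1, at 8.49 and 5.61, against 3.77 to 5.58 and 3.22 to 4.87 on the other arrays. The other eosinophil markers, Siglecf and Ccr3, were at 1.99 and 2.35 on LRC replicate 1, and lay below the median on all 6 arrays. LRC replicate 1 is also the array on which Csf2ra was highest, and the part of such cells in the Csf2ra level was not tested.

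Csf1r, the tyrosine kinase receptor for M-CSF and a gene of monocytes and macrophages, was at 4.44, 4.03 and 4.25 on the non-LRC arrays and 4.34, 4.10 and 4.47 on the LRC arrays. The dimmest of its probe sets was uneven from array to array, at 2.21, 4.34 and 2.41 on the non-LRC arrays and 2.15, 6.35 and 5.70 on the LRC arrays. LRC replicates 2 and 3 were thus high on this probe set and LRC replicate 1 was not; the difference of 1.75 (SE 1.18) did not pass. Of 6 measured macrophage and monocyte markers, Lyz2 alone lay above the other-tissue level on all 6 arrays, and Adgre1 was at 1.82 to 3.04.

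In the IL-6 and IL-12 group, 3 of 5 genes lay above the median on all 6 arrays. Il6ra, the IL-6 binding chain, was at 5.98, 5.79 and 6.02 on the non-LRC arrays and 6.18, 5.93 and 5.999 on the LRC arrays. Its replicates had SDs of 0.12 and 0.13, and its other probe set stayed at 4.80 to 5.11, below the other-tissue level. Il27ra, the IL-27 binding chain, was at 5.49, 6.49 and 6.63 on the non-LRC arrays and 6.60, 6.20 and 6.40 on the LRC arrays, with non-LRC replicate 1 the low array. Il6st, which encodes their shared chain gp130, exceeded the other-tissue level on all 6 arrays, at 7.06 to 8.69. Il12rb2, a signalling chain for IL-12, lay above the median on all 6 arrays, but its partner Il12rb1 exceeded it on 1, at 4.03 to 4.48.

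The IL-10 and IL-22 receptors, of the class that also includes interferon receptors, had 2 of 6 genes above the median on all 6 arrays. Il10rb, the shared second chain for IL-10 and IL-22, was at 6.16, 5.79 and 5.65 on the non-LRC arrays and 5.84, 6.43 and 4.69 on the LRC arrays, where replicate 3 was the low array. Il10ra, the IL-10 binding chain, was at 4.03 to 5.55, above the median on 3 arrays. Il22ra1, a chain typical of epithelial cells, was at 4.92, 4.77 and 4.93 on the non-LRC arrays and 5.02, 5.09 and 4.77 on the LRC arrays, and Il13ra2, a decoy receptor for IL-13, was at 4.75, 4.65 and 4.57 and at 4.71, 4.42 and 4.68. Il22ra1 exceeded the other-tissue level on 1 array and Il13ra2 on none, so neither could be told from the brighter genes of other tissues. Il31ra, the IL-31 binding chain, was at 3.80 to 4.82, above the median on 3 arrays. Il22ra2 was at 2.48, 3.38 and 3.03 on the non-LRC arrays and 2.78, 2.98 and 2.25 on the LRC arrays.

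Of 9 genes of the IL-1 and IL-18 family, Il18r1 was the 1 above the median on all 6 arrays. This IL-18 binding chain was at 6.32, 5.31 and 6.54 on the non-LRC arrays and 6.07, 6.12 and 4.93 on the LRC arrays, and its partner Il18rap exceeded the median on 5 arrays. Il1r1, the receptor for IL-1, was at 5.88 on non-LRC replicate 1 and at 3.38 and 3.39 on the other non-LRC arrays, against 4.25, 3.33 and 3.14 in LRC. Its level in non-LRC thus rested on a single array. Il1rap, the accessory chain shared by IL-1 and IL-36 receptors, was at 5.28, 5.01 and 4.58 on the non-LRC arrays and 5.14, 4.89 and 3.75 on the LRC arrays, below the other-tissue level throughout. Il1rl2, the IL-36 receptor, ran from 3.53 to 5.98, with LRC replicate 1 alone above the other-tissue level. The decoy receptor Il1r2 and the antagonist Il1rn stayed between 2.25 and 3.53.

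The chains of each receptor were then read together. Above the array median on all 6 arrays were 49.1% of all genes. No share over pairs of other genes was computed, so the counts below only describe these receptors. Some chains, such as Il17ra, Il6st and Il10rb, count in more than 1 receptor. Of 24 cytokine receptors examined, 22 were combinations of 2 chains, and 5 of these had both chains above the array median on all 6 arrays: those for IL-6, IL-27, IL-22, IL-17A and IL-25. With the other-tissue level as the reference, 1 remained, the IL-6 receptor with Il6ra and Il6st. On non-LRC replicate 1, where that level was highest at 5.92, Il6ra was at 5.98. The IL-27 and IL-17A receptors dropped out on that array alone, through Il27ra and Il17rc. The other-tissue level was exceeded on all 6 arrays by 31.5% of all genes. These counts rest on the probe set of highest mean. The other Il6ra probe set exceeded the other-tissue level on 0 arrays, so by it the IL-6 receptor would not remain. The other Il17rc probe set exceeded the median on 0 arrays and the other Il10rb probe set on 3. By these, the IL-17A and IL-22 receptors would not have both chains above the median. No chain lay above the median on any array for IL-5, IL-2 (alpha and beta) and the type I IL-20 receptor. For GM-CSF, IL-15 and IL-4 or IL-13 (type II), 1 chain lay above the median on every array: Csf2ra, Il15ra and Il4ra. The other chain (Csf2rb, Il2rb and Il13ra1), by its probe set of highest mean, did so on none. For the beta chain this rests on the choice of probe set: by the probe set that names both Csf2rb and Csf2rb2, the GM-CSF receptor would have both chains above the median and the IL-5 receptor 1, though neither beta chain would exceed the other-tissue level. The other Csf2ra probe set exceeded the median on 0 arrays. By it the GM-CSF receptor would not have both chains above the median with either beta chain probe set. IL-21 and type I IL-4 receptors need the common gamma chain and were not scored.

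**Figure D2:**
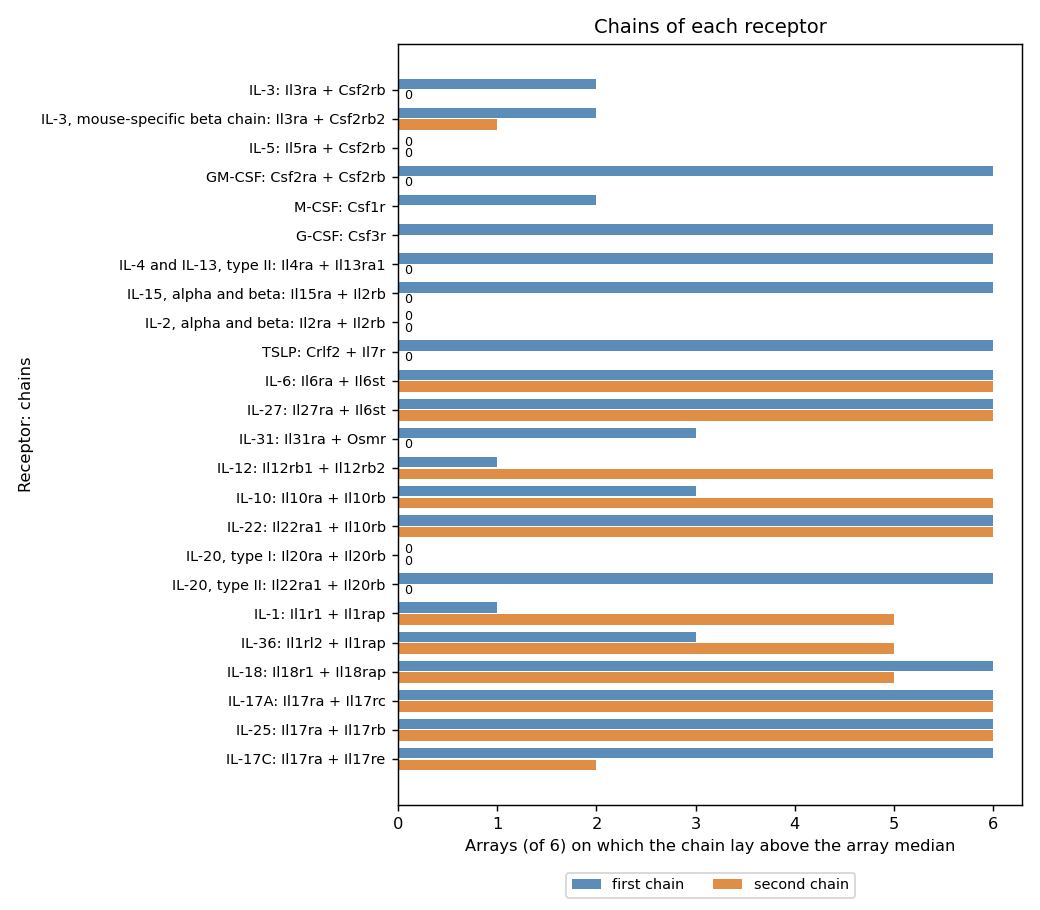
Number of arrays, of 6, on which each chain of 24 receptors lay above the array median; blue bars are the first chain named and orange bars the second, and G-CSF and M-CSF receptors have a single chain. Each chain is shown by its probe set of highest mean. By these, the receptors for IL-6, IL-27, IL-22, IL-17A and IL-25 reach 6 with both chains, while IL-5, IL-2 and type I IL-20 receptors are at 0.

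Promoter windows of the RefSeq table (GRCm38.p6, 250 bases before to 50 after a start) were found for 32 of the 41 genes. The CG dinucleotide, whose density separates broadly used from tissue-restricted promoters, was counted in each window, taking the richest window of a gene with several starts. The median count was 11.5 in the 12 matched genes above the array median on all 6 arrays (range 1 to 32), 5 in the 8 above it on some arrays and 6 in the 12 above it on none (range 1 to 28). Over all 27025 genes of the table it was 8. A count at or above 7, the median of all windows, was found in 11 of the 12 genes above the array median on all 6 arrays. It was found in 3 of the 8 above it on some arrays and 6 of the 12 above it on none, and in 14655 of the 27025 genes. The ranges overlap almost entirely: Il13ra1, below the array median on every array, had 28, and Il21r, above the other-tissue level throughout, had 7. The 250 bases upstream of the start are shown for the 5 genes with a single start that either exceeded the other-tissue level on all 6 arrays (Il6ra, Il21r) or had LRC and non-LRC values that did not overlap (Il12rb2, Il20ra, Il1rapl2), with CG in capitals. They lie at chr3:89913197-89913446 (Il6ra, minus strand), chr7:125603179-125603428 (Il21r, plus strand), chr6:67376189-67376438 (Il12rb2, minus strand), chr10:19712337-19712586 (Il20ra, plus strand) and chrX:137570504-137570753 (Il1rapl2, plus strand). Il6ra has 18 CG in the stretch shown and Il21r 4, although both exceeded the other-tissue level on all 6 arrays; Il1rapl2 has 14, Il12rb2 10 and Il20ra 7.
Il6ra: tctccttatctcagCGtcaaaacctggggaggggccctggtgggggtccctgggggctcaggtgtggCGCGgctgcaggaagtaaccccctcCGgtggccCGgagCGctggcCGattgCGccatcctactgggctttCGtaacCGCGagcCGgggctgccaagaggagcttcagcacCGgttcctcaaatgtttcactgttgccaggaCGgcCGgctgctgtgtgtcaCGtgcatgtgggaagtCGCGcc
Il21r: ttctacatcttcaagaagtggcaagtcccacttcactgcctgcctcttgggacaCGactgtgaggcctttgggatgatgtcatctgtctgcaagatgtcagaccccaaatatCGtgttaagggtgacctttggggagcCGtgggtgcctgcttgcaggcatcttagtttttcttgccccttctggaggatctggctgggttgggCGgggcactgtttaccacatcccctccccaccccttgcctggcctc
Il12rb2: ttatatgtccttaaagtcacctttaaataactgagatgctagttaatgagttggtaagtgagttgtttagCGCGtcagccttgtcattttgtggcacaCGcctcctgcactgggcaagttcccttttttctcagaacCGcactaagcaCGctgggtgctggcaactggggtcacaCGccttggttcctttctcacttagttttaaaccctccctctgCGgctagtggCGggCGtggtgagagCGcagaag
Il20ra: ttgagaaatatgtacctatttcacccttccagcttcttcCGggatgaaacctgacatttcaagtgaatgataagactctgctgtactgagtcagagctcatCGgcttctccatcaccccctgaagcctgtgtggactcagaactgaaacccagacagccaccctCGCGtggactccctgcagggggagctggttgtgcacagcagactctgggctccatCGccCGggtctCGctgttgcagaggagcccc
Il1rapl2: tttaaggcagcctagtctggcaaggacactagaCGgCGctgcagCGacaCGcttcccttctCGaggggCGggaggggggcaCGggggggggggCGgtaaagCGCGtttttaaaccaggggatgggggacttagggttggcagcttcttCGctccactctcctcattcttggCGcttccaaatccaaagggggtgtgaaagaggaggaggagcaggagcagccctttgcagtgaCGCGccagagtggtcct

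LRC and non-LRC HSCs were then compared. No receptor gene passed the threshold: limma called 0 of 41 genes at an adjusted p of 0.05, and 0 (0%) of all 45037 probe sets, with a smallest adjusted p of 0.998 among the receptor genes. At an unadjusted p under 0.05 there were 2 receptor genes, Il1rapl2 and Il20ra, against 3.75% of all genes. Both had the higher mean in LRC, a direction and p found for 1.73% of all genes. The mean was higher in LRC for 25 of the 41 (61.0%) and for 54.9% of all genes, and the median difference was 0.07, against 0.03 over all genes. Of the 15 genes above the array median on all 6 arrays, 8 (53.3%) had the higher mean in LRC. Of the 15 above it on none, 12 (80%) did, Il1rapl2 and Il20ra among them. No such split was made over all genes. Over the 41 genes the median difference was 0.02 without LRC replicate 1 and 0.03 without LRC replicate 3. It was -0.09 when the level of the spiked-in hybridization controls was a covariate. Their mean was 11.24 and 11.02 on LRC replicates 1 and 3, and 10.58 to 10.70 on the remaining arrays. Their part in the differences below was not tested beyond that covariate.

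For 3 genes (7.32%) the LRC and non-LRC values did not overlap, against 8.32% of all genes, which is near the background. All 3 were higher in LRC (4.71% of all genes) and 0 were lower (3.62% of all genes). The count was 7, 6 or 5 without LRC replicate 1, 2 or 3, and 5 without non-LRC replicate 1; fewer arrays overlap less by construction. Il12rb2 was at 5.38, 5.57 and 5.67 on the non-LRC arrays and 5.90, 5.82 and 6.21 on the LRC arrays. It was the only one of the 3 above the array median, and its means of 5.54 ± 0.15 and 5.98 ± 0.21 (SD, n = 3 each) differed by 0.44 (SE 0.20, adjusted p = 0.998 in limma), a 1.35-fold higher level. Leaving out single arrays gave 0.32 to 0.51.

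Il20ra and Il1rapl2 had larger differences at levels below the array median on every array. Il20ra, a chain of the IL-20 receptor of skin and other epithelia, was at 2.72, 3.17 and 2.94 on the non-LRC arrays and 4.12, 3.44 and 3.74 on the LRC arrays. The difference was 0.83 (SE 0.25, adjusted p = 0.998 in limma), and its partner Il20rb differed by -0.04 (SE 0.24). Il1rapl2, an X-linked relative of the IL-1 receptor accessory protein, was at 2.02, 2.84 and 2.80 on the non-LRC arrays and 3.87, 3.55 and 4.21 on the LRC arrays, a difference of 1.32 (SE 0.31, adjusted p = 0.998 in limma). No fold is given for either gene, since both were below the references in both groups. Il1rapl2 was the 1 receptor gene with a difference of at least 1 on the log2 scale, a size seen in 4.45% of all genes; 1.68% of all genes had this together with an unadjusted p under 0.05. Its 2 other probe sets had the opposite sign, at -0.09 (SE 0.62) and -0.23 (SE 0.33), as the plot of all probe sets shows. The related Il1rapl1 was at 1.62, 1.50 and 1.86 on the non-LRC arrays and 2.11, 1.77 and 1.86 on the LRC arrays.

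**Figure D3:**
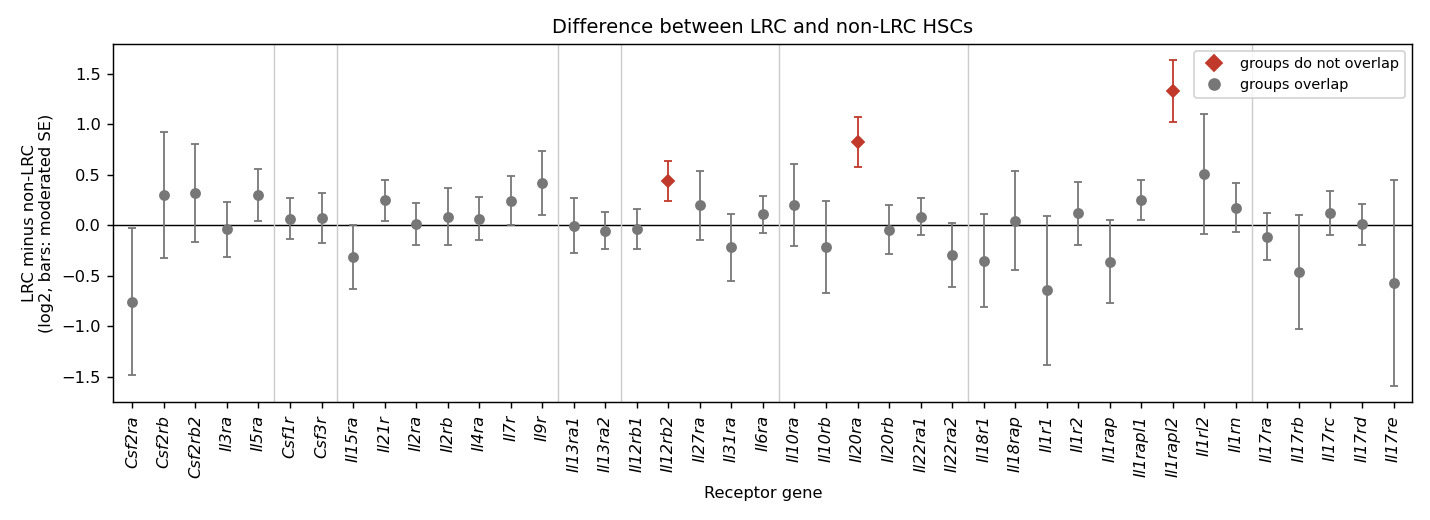
LRC minus non-LRC difference of each of the 41 receptor genes (log2), with limma's moderated standard error as the bar, ordered by family. The 3 genes whose groups do not overlap (red diamonds) are Il12rb2, Il20ra and Il1rapl2, at 0.44, 0.83 and 1.32; no gene passed the adjusted threshold.

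Of the genes with a lower mean in LRC, the 5 of smallest p were Csf2ra, Il15ra, Il22ra2, Il1rap and Il1r1. Csf2ra had the lowest difference of the set, -0.75 (SE 0.72), which was -1.64 without LRC replicate 1, the 1 LRC array above the non-LRC values, -0.37 without LRC replicate 2 and -0.26 without LRC replicate 3. The other Csf2ra probe set gave 0.78 (SE 0.37), of opposite sign, at a low level of 2.47 to 4.08. Il15ra differed by -0.31 (SE 0.31), with the same sign in its other probe set, and Il22ra2 by -0.30 (SE 0.32). Il15ra gave -0.055 without non-LRC replicate 3 and -0.11 without LRC replicate 1. Il22ra2 gave -0.090 without non-LRC replicate 2, -0.086 without LRC replicate 3, -0.54 without non-LRC replicate 1 and -0.45 without LRC replicate 2. Il1rap differed by -0.36 (SE 0.41), with the opposite sign in all 4 of its other probe sets. For Il1r1 the value of -0.64 (SE 0.73) turned to 0.19 without non-LRC replicate 1.

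In the other direction, Il9r (0.42, SE 0.31), Il1rapl1 (0.25, SE 0.20) and Il21r (0.25, SE 0.20) followed the 3 genes whose groups did not overlap. For Il9r the difference was 0.10 without LRC replicate 1, its highest array, and for Il1rapl1 it was 0.15 without the same array. Il21r is the 1 of these above the other-tissue level on all 6 arrays, and gave 0.16 to 0.38 with 1 array left out, the lowest without LRC replicate 3 and the highest without LRC replicate 1. Among the remaining receptors above the median on all 6 arrays, Il6ra differed by 0.11 (SE 0.18), Il4ra by 0.06 (SE 0.21), Il27ra by 0.20 (SE 0.34) and Csf3r by 0.07 (SE 0.25). Il10rb (-0.21, SE 0.45), Il18r1 (-0.35, SE 0.46), Il17rb (-0.46, SE 0.56) and Il17rc (0.12, SE 0.22) differed by less than their errors as well. Replicates varied somewhat more in LRC, with a median SD over the 41 genes of 0.37 against 0.22 in non-LRC; over all genes these were 0.35 and 0.27. LRC replicate 1 had the lowest correlations with the other arrays, 0.901 to 0.919 across probe sets.

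**Figure D4:**
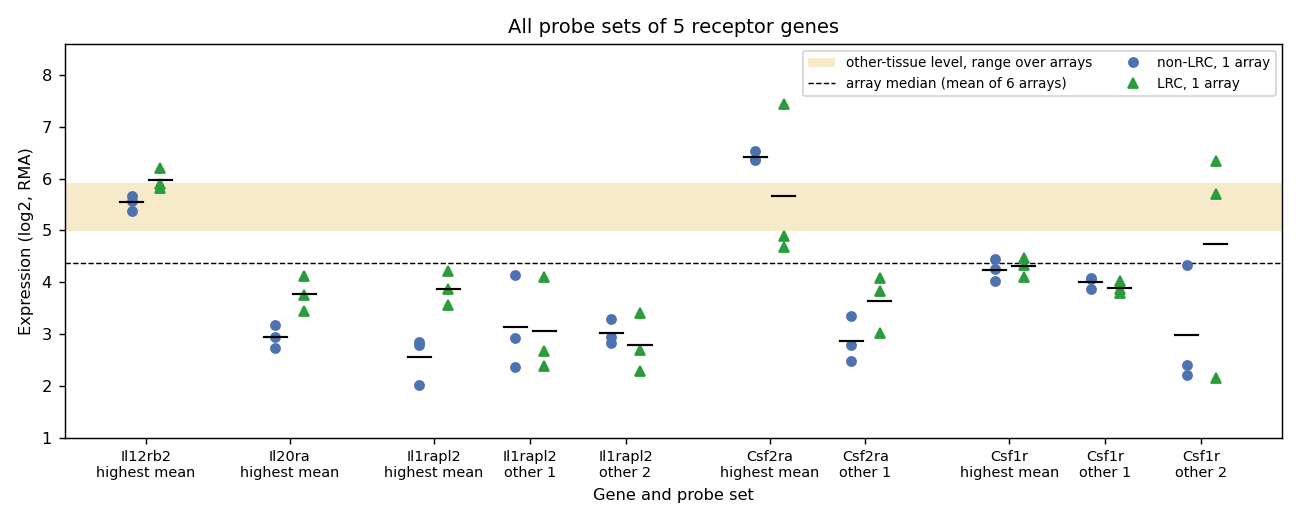
Values (log2, RMA) of every probe set of Il12rb2, Il20ra, Il1rapl2, Csf2ra and Csf1r, with 1 circle for each non-LRC and 1 triangle for each LRC array and a short line at each group's mean (n = 3). The LRC values of Il1rapl2 lie above the non-LRC values with the probe set of highest mean only, and the probe sets of Csf2ra differ in sign.

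Genes that act with these receptors were read from the same fit, and 0 of those listed passed. Among 16 measured shared chains and partner receptors outside the naming rule, 10 had a higher and 6 a lower mean in LRC, and 8 exceeded the other-tissue level on all 6 arrays. Il6st was at 7.06, 7.81 and 7.80 on the non-LRC arrays and 8.17, 8.14 and 8.69 on the LRC arrays, with no overlap. The difference was 0.78 (SE 0.29, unadjusted p = 0.0360, adjusted p = 0.998 in limma), with the same sign in 2 of its 3 other probe sets. Ifnar2, an interferon receptor chain, differed by -1.03 (SE 0.58), and Epor, the erythropoietin receptor, by -0.75 (SE 0.44). Kit, the stem cell factor receptor used for the gate, had a mean of 9.05 ± 0.06 in non-LRC and 9.07 ± 0.07 in LRC (SD, n = 3 each), a difference of 0.03 (SE 0.17), and Flt3, the receptor of multipotent progenitors, by -0.27 (SE 0.61).

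Of the signalling genes, 3 of 4 JAK kinases and 5 of 6 measured STAT genes exceeded the other-tissue level on all 6 arrays. Jak1 differed by 0.28 (SE 0.21), Tyk2 by -0.38 (SE 0.27, of opposite sign in its other probe set) and Jak3, the partner kinase of the common gamma chain, by -0.38 (SE 0.37). Stat6, the factor of IL-4 signalling, differed by 0.50 (SE 0.25), Stat5a by -0.45 (SE 0.23) and Stat3 by -0.57 (SE 0.30), although none of the 3 other Stat3 probe sets and not the other Stat5a probe set had that sign. Of 17 SOCS and other feedback genes, 7 had a higher and 10 a lower mean. Pias4, an inhibitor of STAT factors, differed by 0.57 (SE 0.19, with the same sign in 1 of 2 other probe sets), Pias2 by 0.53 (SE 0.30, of opposite sign in both of its other probe sets) and the phosphatase gene Ptpn11 by -0.50 (SE 0.33).

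Among 11 adaptors of the IL-1 and IL-17 pathways, the groups did not overlap for 3, where 8.32% of all genes had no overlap. Irak3, an inhibitory IRAK kinase, was at 6.57, 6.94 and 6.98 on the non-LRC arrays and 7.80, 7.55 and 8.23 on the LRC arrays. This difference of 1.03 (SE 0.25, unadjusted p = 0.00558, adjusted p = 0.998 in limma) had the same sign in its other probe set. Irak1bp1 differed by -1.31 (SE 0.58), but stayed below the other-tissue level on every array, and non-LRC replicate 1 (5.88) stood above the other non-LRC arrays (4.27 and 3.53). Traf3ip2, the adaptor of Il17ra, was at 5.59, 5.50 and 5.82 on the non-LRC arrays and 5.28, 5.49 and 4.83 on the LRC arrays. Of 26 measured interleukin and CSF genes, 21 stayed below the other-tissue level on every array and 4 exceeded it on all 6: Il15, Il16, Il18 and Csf1. Il18 differed by 0.50 (SE 0.40), Il1b by 0.29 (SE 0.25) and Il4 by -0.43 (SE 0.28).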

How the data were processed

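Total RNA of 6 sorted samples was amplified in 2 rounds and hybridized to 1 array each, per the labels' protocols. Per the submitters' processing notes the authors used RMA, with no version named; the deposited table holds 1 log2 value for each probe set and array, with the base inferred from the values' range. Since RMA equalizes the distributions of the arrays, total RNA per cell is out of reach. Columns of other samples numbered 0.

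Of 45101 probe sets, 64 controls were left out. The LRC against non-LRC test was limma's (version 3.58.1, R 4.3.3; lmFit, eBayes, no covariate), run over 45037 probe sets with Benjamini-Hochberg adjustment over all of them and a threshold of 0.05. The fit was first run on simulated data with independent noise, which lacks the uneven arrays of these data, and nothing is concluded from that run. Arrays carry no read depth; their number, 3 a group, limits the precision. Of the probe sets, 34945 named 1 gene, 932 several and 9160 none. Symbols came from a platform annotation; for pathway and marker lists, a RefSeq table (GRCm38.p6) supplied current symbols by gene identifier. The receptor genes, lists, chain combinations and tests were chosen with earlier results of these data known. Values on every array are given for members above the array median on all 6 arrays, members whose groups do not overlap, the 5 with the smallest p in each direction, and a few fixed names; of each pathway list, the 3 genes of smallest p are named, with Il6st, Kit and Flt3 fixed. Same-numbered arrays did not qualify as pairs, so the number was used only in an alternative fit.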

Additional observations from a re-analysis of the deposited data

How the results depend on the processing

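With 3 arrays a group and no detection calls, neither a difference that misses the threshold nor a level below the references shows absence, and which chains count as expressed depends on the reference. Of the 41 receptor genes 15 were above the median on all 6 arrays, 2 above the 75th percentile, 4 above the other-tissue level and 26 above the median on at least 1 array; leaving out 1 array gave 15 to 16, the mean of all probe sets 10 and the second probe set 12. Calls numbered 0 in every fit run, the one with the replicate number as a block (replicate block, 0 called) included, but 1 receptor gene and 1 partner gene met an unadjusted p under 0.05 with at least 2-fold. Same-numbered arrays had correlations of 0.08, 0.14 and 0.08 in their deviations from the group means, and each correlated best with its own number, a hint from the data and not the design. The count of genes whose groups did not overlap was 4 to 7 with 1 array left out. The median difference was 0.02 to 0.11 with 1 array left out and -0.094 with the hybridization controls as a covariate. That covariate also turned the sign for Csf1r (-0.10), Il10rb (0.15), Il15ra (0.073), Il17rc (-0.094), Il6ra (-0.0098) and Il7r (-0.10), and array weights did for Il3ra (0.00050). The mean of all probe sets turned Csf2ra (0.013), Il1rap (0.059) and Il4ra (-0.051). The second probe set turned Csf1r (-0.11), Csf2ra (0.78), Il1r1 (0.24), Il1rap (0.31), Il1rapl2 (-0.091), Il4ra (-0.22) and Il7r (-0.029). The cause was not tested. Leaving out 1 array turned the sign of 15 of 27 named genes: Csf1r (-0.040 to 0.17), Csf2rb2 (-0.21 to 0.59), Csf2rb (-0.27 to 0.79), Csf3r (-0.12 to 0.26), Il10rb (-0.60 to 0.27), Il13ra2 (-0.11 to 0.040), Il17ra (-0.24 to 0.088), Il17rb (-0.85 to 0.12), Il17rc (-0.012 to 0.27), Il18r1 (-0.73 to 0.034), Il1r1 (-1.06 to 0.19), Il1rap (-0.63 to 0.060), Il27ra (-0.16 to 0.41), Il3ra (-0.21 to 0.19) and Il4ra (-0.061 to 0.22). The sign held in all settings run for 7 of the 27.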
